A study of Homo sapiens with 2 samples.

Results

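The molecular chaperones and J-domain co-chaperones were examined in an ATAC-seq comparison of 2 libraries. The genes were the protein-coding RefSeq genes (GRCh38) whose symbols begin with DNAJ, HSPA, HSPB, HSPH, HSP90 or CCT and a digit, with HSPD1, HSPE1 and TCP1 added. This rule found 84 genes of 20037 protein-coding genes, and 24 of the 84 had a peak in at least 1 library. The prefix HSPB also brought in HSPBP1 and HSPBAP1, which bind chaperones and are not small heat shock proteins. DNAJC25-GNG10 is a read-through gene that shares the start of DNAJC25.

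ATAC-seq uses a transposase to cut and tag DNA that is open in chromatin. Both libraries came from the line labelled C42, which is C4-2, a prostate cancer line of the LNCaP lineage that grows without androgen. The reference group carried a control shRNA (shCTR) and the other group an shRNA against WHSC1, also called NSD2, a methyltransferase for histone H3 (shWHSC1). Both were grown in RPMI with serum and antibiotics. Each group is 1 library of 1 line, and the labels do not say whether more than 1 shRNA sequence was used. Differences between the libraries therefore have no replicate check and no p-value, and read depth is unknown. NSD2 had no peak in either library, and a peak list gives no check of an shRNA, which acts on the transcript. Of 12 luminal prostate markers, ACP3 and STEAP2 had a peak in both libraries and the other 10, KLK3 among them, had none. The STEAP2 peaks of the control and the knockdown did not overlap. None of 5 leukocyte, 5 stromal and endothelial or 3 basal markers had one. Over all protein-coding genes, 4.95% had a peak in both libraries and 12.0% in either, so counts this small do not show a cell type.

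Chaperones bind unfolded or partly folded proteins. HSP70 proteins (the HSPA genes) work in cycles of ATP binding and release. J-domain proteins (the DNAJ genes) bring them clients and start ATP hydrolysis, and HSP110 proteins (HSPH1, HSPA4, HSPA4L) exchange the nucleotide. HSP90 proteins act later on folding clients, small heat shock proteins (HSPB) hold unfolded proteins without ATP, and chaperonins enclose a protein in a ring: CCT with its subunit TCP1 in the cytosol, HSPD1 with its lid HSPE1 in mitochondria. The endoplasmic reticulum and the mitochondrion have HSP70, HSP90 and J-domain proteins of their own, and the unfolded protein response raises those of the endoplasmic reticulum.

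A gene was counted as having a peak if a peak of the deposited list lay in it or within 3 kb of either of its ends. A peak was called at 17 of the 84 chaperone genes in the control (20.2%, exact 95% Clopper-Pearson interval 12.3 to 30.4%), against 7.64% of all protein-coding genes. In the knockdown, 21 had one (25.0%, interval 16.2 to 35.6%), against 9.26% of all. A peak was present in both libraries at 14 genes (16.7%, background 4.95%), in the control only at 3 (3.57%, background 2.69%) and in the knockdown only at 7 (8.33%, background 4.32%). The chaperone genes were proposed as a group with results of these data known, so the gap to the background describes them and is not a test. The intervals cover the counting of genes only. The excess of knockdown over control turned when both lists were limited to peaks with a −log10 q of at least 2: 13 genes in the control (background 4.36%) and 12 in the knockdown (background 5.63%) then had a peak. At a −log10 q of at least 5 the counts were 3 in the control (background 0.579%), 3 in the knockdown (0.739%), 2 in both (0.294%), 1 in the control only (0.284%), 1 in the knockdown only (0.444%) and 4 in either library (1.02%). Counting gene ends only, 16 genes had a control peak (background 6.28%) and 19 a knockdown peak (7.52%), with 13 in both (4.15%), 3 in the control only (2.14%), 6 in the knockdown only (3.37%) and 22 in either library (9.65%). The absence of a peak is the absence of a call at the authors' threshold and does not measure closed chromatin.

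The members with a peak were counted by family. All of the calls fell in the HSP70, HSP110, HSP90, DNAJB, DNAJC and chaperonin genes. None of 4 DNAJA genes (interval 0 to 60.2%), 7 small heat shock protein genes (interval 0 to 41.0%) and 2 genes of chaperone-binding proteins had one in either library. CCT and TCP1 had a peak at 5 of 10 genes, HSPA at 4 of 14, DNAJB at 3 of 12 and DNAJC at 8 of 29, counting either library. HSPH1 and HSP90B1 had one among the 4 HSPH and HSP90 genes. HSPD1 and HSPE1 both had one, but it was the same peak. The background for a peak in either library was 12.0% of protein-coding genes. The families are small, their intervals are wide and overlap, and no test of a difference between them was made. Chromosomes 16, 17, 19 and 22 held 10 of the chaperone genes, among them DNAJA2, DNAJA3, HSPB6, HSPB9 and HSPBP1, and none had a peak. Of all protein-coding genes there, 1.76% had one, against 14.4% on the other chromosomes. This grouping was made by hand and leaves out chromosomes 20 (3.17%) and 21 (0.837%). Their 2 and 3 chaperone genes had no peak either. DNAJA1, DNAJA4, HSPBAP1, HSPB1, HSPB2, HSPB3, HSPB7 and HSPB8 lie on chromosomes outside the grouping and also had none.

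**Figure D1:**
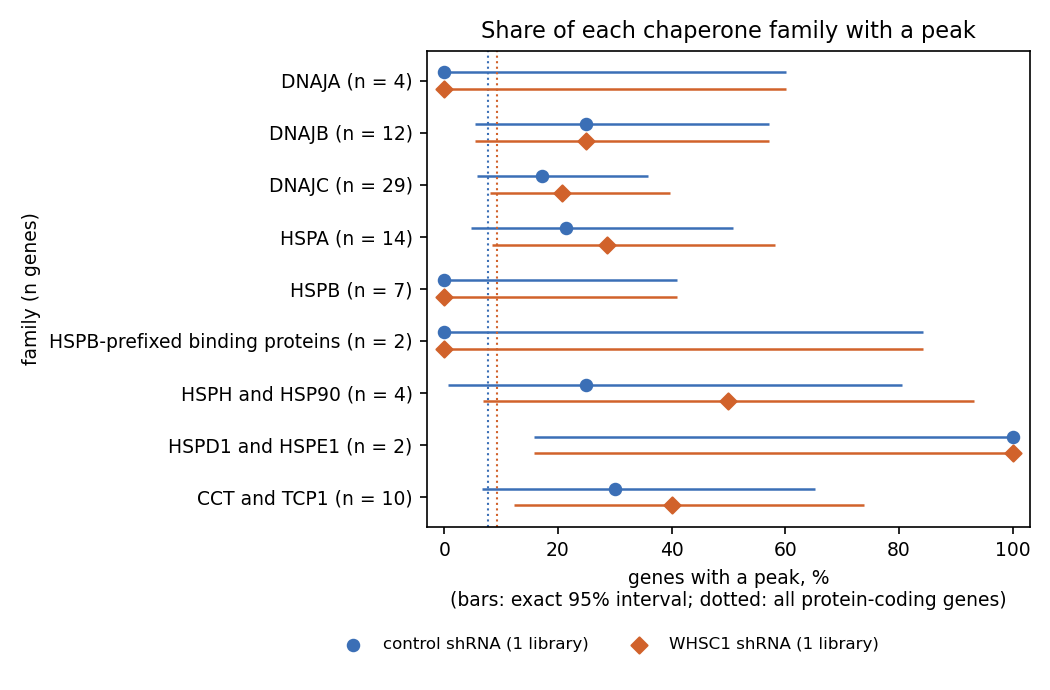
Percentage of genes with a peak (x axis) in each chaperone family (y axis, n genes), for the control shRNA and the WHSC1 shRNA library, with exact 95% intervals as bars and the share of all protein-coding genes as dotted lines (7.64% and 9.26%). DNAJA and HSPB genes stand at 0, and the intervals of the other families are wide.

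By the compartment in which the protein mainly works, peaks in either library stood at 7 of 14 genes of the endoplasmic reticulum (exact interval 23 to 77%), against a background of 12.0% of all protein-coding genes. The share was 11 of 46 genes of the cytosol or nucleus (23.9%, interval 12.6 to 38.8%), 2 of 8 mitochondrial genes (25.0%, interval 3.19 to 65.1%) and 2 of 5 vesicle or endocytic genes. The other 2 were among 11 genes that were not assigned to a compartment. In the control 4 genes of the endoplasmic reticulum had a peak (background 7.64%), and in the knockdown 6 (background 9.26%). The intervals of these compartments overlap, and no test of the difference was made.

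The mitochondrial chaperonin had the strongest knockdown peak of the group. HSPD1 (chromosome 2, 197486584 to 197500274) and HSPE1 (197500379 to 197503449) lie head to head with 104 bases between them. A control peak at 197499926 to 197500326 had 4.71-fold enrichment over the local background and a −log10 q of 5.88, and a knockdown peak at 197499895 to 197500387 had 4.74-fold enrichment and a −log10 q of 7.71. Fold enrichment is the authors' ratio of pileup to background in the same library, and the q-value is the authors' as well. These were the only chaperone genes past a −log10 q of 5 in both libraries. The control peak covered the HSPD1 start and ended 53 bases before the HSPE1 start, and the knockdown peak covered both starts. HSPE1-MOB4, a read-through gene, shares the HSPE1 side. The stretch between the genes, chr2:197500275-197500378, and a run of heat shock element cores inside HSPD1, chr2:197500064-197500089, are shown because the knockdown peak covers both and the control peak covers the second and part of the first. Both are written on the minus strand, the strand of HSPD1 (RefSeq, GRCh38.p14). Capitals mark overlapping matches to GAANNTTC or TTCNNGAA, the core bound by heat shock factors, and lie 189 to 206 bases after the HSPD1 start. The same cores lie at −245 to −228 from an inner annotated start of HSPD1.
HSPD1 to HSPE1: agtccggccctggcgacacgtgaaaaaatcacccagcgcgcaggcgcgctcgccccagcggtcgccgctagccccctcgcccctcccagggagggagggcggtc
HSPD1 heat shock element cores: cattTTCTGGAAAGTTCTGGAAccga

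The other 6 mitochondrial members had no peak: HSPA9, the mitochondrial HSP70, its J-domain partners DNAJA3, DNAJC15 and DNAJC19, and DNAJC11 and DNAJC30. The nearest peak to HSPA9 was a knockdown peak 10001 bp away (4.15-fold).

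Of the genes of the endoplasmic reticulum, 3 had a peak in both libraries (background 4.95%), 3 in the knockdown only (4.32%) and 1 in the control only (2.69%). DNAJB9, which encodes the BiP co-chaperone ERdj4, had the highest control fold of all members. Its control peak (chromosome 7, 108569413 to 108569918) had 4.74-fold enrichment and its knockdown peak (108569627 to 108570087) 4.05-fold, with −log10 q of 5.98 and 4.88. Both covered the annotated start, and both also lay at THAP5, a gene of a zinc finger protein 105 bases away. DNAJB11, which encodes ERdj3, a soluble BiP co-chaperone, had a control peak of 3.35-fold (chromosome 3, 186570359 to 186570635) and a knockdown peak of 3.36-fold (186570276 to 186570641). These peaks ended 85 and 79 bases upstream of the DNAJB11 start, and TBCCD1 begins 176 bases away on the other side. DNAJC25, a membrane J-domain protein, had a control peak of 3.87-fold and a knockdown peak of 3.47-fold over the start it shares with DNAJC25-GNG10.

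A knockdown peak without a control peak stood at DNAJC3, HSP90B1 and DNAJC14. DNAJC3, the co-chaperone P58IPK that also restrains the kinase PERK, had 4.34-fold enrichment and a −log10 q of 3.94, the highest of the knockdown-only peaks of the group. The peak also lay at the noncoding gene DNAJC3-DT, and the nearest control peak was 376387 bp away. HSP90B1, the endoplasmic reticulum HSP90 known as GRP94, had 3.66-fold enrichment (chromosome 12, 103930076 to 103930402) and a −log10 q of 2.69, with the peak ending 8 bases before the start. At DNAJC14, which regulates receptor transport, a 3.11-fold peak lay 152 bases upstream of an inner annotated start. A second DNAJC14 peak of 3.56-fold lay at SARNP and ORMDL2, 2997 bp from the gene and just inside the 3 kb limit. DNAJC10, the disulfide reductase ERdj5, had a peak in the control only, of 3.40-fold and −log10 q 1.74, which covered its start and also lay at PDE1A.

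HSPA5, which encodes BiP, the HSP70 of the endoplasmic reticulum and a main target of the unfolded protein response, had no peak in either library. HSPA13, DNAJB12, DNAJB14, DNAJC1, DNAJC16 and DNAJC18 had none either. The upstream stretches of 5 of these genes are shown to set those with a peak in both libraries (DNAJB9, DNAJB11), in the knockdown only (DNAJC3, HSP90B1) and in none (HSPA5) beside each other. Each ends at the base before the start and begins at most 250 bases before it or at the next gene. They lie at chr7:108569769-108569873, chr3:186570544-186570719, chr13:95676926-95677138 and chr12:103930212-103930409 on the plus strand and chr9:125241344-125241593 on the minus strand (RefSeq, GRCh38.p14). Capitals mark the CCAAT box on either strand and both arms of the endoplasmic reticulum stress element, a CCAAT box and a CCACG arm that stand 9 bases apart, on either strand. The stress element holds a CCAAT box, so the motifs overlap.
DNAJB9: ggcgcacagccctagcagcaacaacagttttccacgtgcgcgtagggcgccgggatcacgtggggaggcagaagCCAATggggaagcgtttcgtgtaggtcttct
DNAJB11: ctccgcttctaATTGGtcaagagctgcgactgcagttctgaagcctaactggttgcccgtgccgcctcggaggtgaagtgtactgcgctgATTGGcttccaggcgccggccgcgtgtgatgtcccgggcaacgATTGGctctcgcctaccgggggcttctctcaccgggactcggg
DNAJC3: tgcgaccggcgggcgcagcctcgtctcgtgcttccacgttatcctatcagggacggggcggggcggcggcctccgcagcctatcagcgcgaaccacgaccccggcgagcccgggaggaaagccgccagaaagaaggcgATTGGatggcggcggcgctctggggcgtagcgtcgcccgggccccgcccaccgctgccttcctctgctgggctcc
HSP90B1: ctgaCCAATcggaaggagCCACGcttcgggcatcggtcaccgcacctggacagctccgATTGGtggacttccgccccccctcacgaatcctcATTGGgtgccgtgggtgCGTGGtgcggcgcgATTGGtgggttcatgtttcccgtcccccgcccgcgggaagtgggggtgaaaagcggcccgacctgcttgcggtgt
HSPA5: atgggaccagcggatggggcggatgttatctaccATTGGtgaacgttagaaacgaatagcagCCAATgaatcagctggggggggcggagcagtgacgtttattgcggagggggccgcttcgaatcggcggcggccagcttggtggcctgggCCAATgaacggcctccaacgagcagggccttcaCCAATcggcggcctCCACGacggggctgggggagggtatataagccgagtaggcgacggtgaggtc

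The full stress element was found in 2 of the 99 annotated promoter windows of the chaperone genes, those of HSP90B1 and HSPA5. It is rare in general, with 27 of the 35116 windows of the RefSeq promoter table (0.0769%). HSP90B1, which holds it at 2 places, had a peak in the knockdown, and HSPA5, which holds it at 1, had a peak in neither library.

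Among the cytosolic HSP70 genes, HSPA8, which encodes the constitutive HSP70 called HSC70, had a peak in both libraries. The control peak (chromosome 11, 123062115 to 123062334) had 3.76-fold enrichment and a −log10 q of 3.32, and the knockdown peak (123061940 to 123062387) 2.90-fold and 1.36. The knockdown value was the lowest fold of any member peak, and the knockdown peak was the wider, 448 against 220 bp. Both covered the annotated start at 123062136. The small nucleolar RNA gene SNORD14C also lay within 3 kb. HSPA8 has overlapping heat shock element cores at 2 places before its start, shown on its minus strand with the matches in capitals (chr11:123062175-123062195 and chr11:123062350-123062370, RefSeq, GRCh38.p14). The near site lies under the peaks of both libraries and the far site under the knockdown peak only. That knockdown call was lost with lists of equal length and at a −log10 q of at least 2, where HSPA8 was called in the control only.
HSPA8 near site (−55 to −43 from the start): ccccTTCTGGAAGGTTCtaag
HSPA8 far site (−230 to −218 from the start): gcttGAAAGTTCCAGAAcgct

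HSPA2, a testis-enriched HSP70, had a peak in the knockdown only, of 3.34-fold and −log10 q 1.77, which ended 79 bases upstream of an annotated start and also lay at the noncoding gene HSPA2-AS1. HSPA12A, a distant HSP70 relative, had a peak in both libraries at different places inside the gene. The control peak was 3.27-fold and the knockdown peak 3.08-fold, 3230 bp apart, and the knockdown peak ended 219 bases upstream of an inner annotated start. The heat-inducible genes HSPA1A, HSPA1B and HSPA6 had no peak. HSPA1A and HSPA1B are near-identical copies, where reads can be assigned to the wrong gene. HSPA6 fell just outside the distance limit, with a 3.96-fold control peak at 3491 bp and a 3.80-fold knockdown peak at 3446 bp.

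Of the HSP110 genes, HSPH1, which encodes HSP105, had nearly the same enrichment in both libraries. It was 3.95-fold in the control (chromosome 13, 31161990 to 31162471) and 3.96-fold in the knockdown (31161970 to 31162421), with −log10 q of 4.40 and 5.37, and no other coding gene shared the peak. HSPA4L had a 3.75-fold control peak of 839 bp and a 3.42-fold knockdown peak of 202 bp, which overlapped. HSPA4 had none, and neither did the cytosolic HSP90 genes HSP90AA1 and HSP90AB1.

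**Figure D2:**
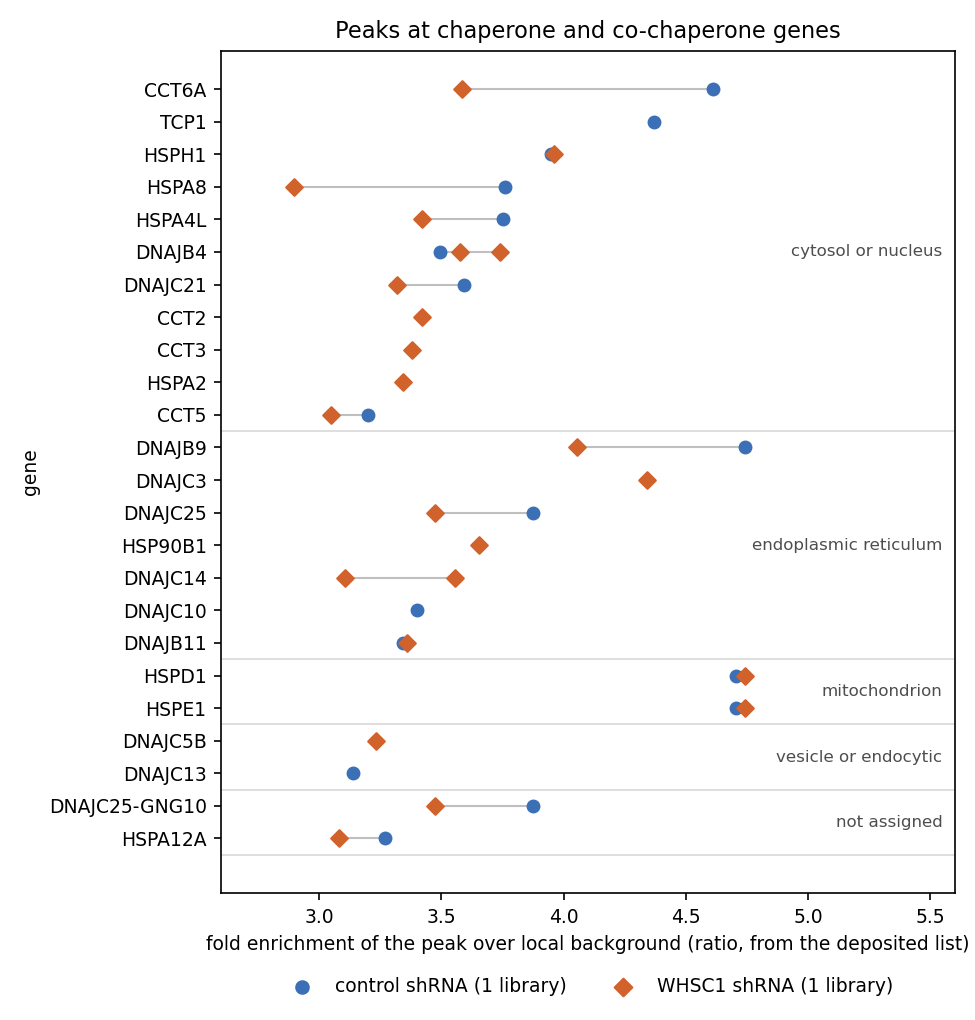
Fold enrichment of each peak over local background (x axis, the authors' ratio) for the 24 chaperone and co-chaperone genes with a peak (y axis), grouped by compartment, with circles for the control shRNA library and diamonds for the WHSC1 shRNA library. HSPD1 and HSPE1 share 1 peak with 4.71-fold and 4.74-fold enrichment, DNAJC25 and DNAJC25-GNG10 share another, and 10 genes have a symbol of 1 library only.

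The cytosolic chaperonin had calls spread over both libraries. CCT6A, at which PSPH, a serine synthesis gene, lies 320 bases away, had a control peak of 4.61-fold and a knockdown peak of 3.58-fold. CCT5, 32 bases from ATPSCKMT, had a control peak of 3.20-fold and a knockdown peak of 3.05-fold. TCP1, the alpha subunit, was called in the control alone, with 4.37-fold enrichment and a −log10 q of 3.32 (chromosome 6, 159789663 to 159789973). The peak began 61 bases upstream of the TCP1 start and reached into MRPL18, a mitochondrial ribosomal protein gene 209 bases away. This was the strongest call of the group seen in a single library by fold, and the nearest knockdown peak was 27234 bp away. CCT2 and CCT3 had a peak in the knockdown only, of 3.42-fold and 3.38-fold with −log10 q of 1.85 and 1.87, and the CCT3 peak also lay at TSACC. The other 5 genes, CCT4, CCT6B, CCT7, CCT8 and CCT8L2, had none.

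Of the remaining J-domain genes, DNAJB4, a cytosolic HSP70 partner, had a control peak of 3.49-fold and a knockdown peak of 3.74-fold near its outermost start, where FUBP1 overlaps it. A second DNAJB4 peak of 3.58-fold lay in the knockdown only, 81 bases upstream of an inner annotated start. DNAJC21, a factor of ribosome assembly, had a control peak of 3.59-fold and a knockdown peak of 3.32-fold. DNAJC13, an endosomal protein, had a 3.14-fold peak over its start in the control only. DNAJB1, the main heat-inducible J-domain partner of HSP70, had none, nor had any DNAJA gene.

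Most peaks lay at annotated starts. A RefSeq promoter table matched 76 of the 84 genes, all but CCT6A, DNAJC1, DNAJC22, DNAJC24, DNAJC5B, HSPA12B, HSPA14 and HSPB2. Of the 16 matched chaperone genes with a control peak, 15 had it within 500 bp of a start (93.8%), against 79.6% of 1233 matched protein-coding genes with a peak. In the knockdown it was 19 of 19, against 78.1% of 1539. The exception was HSPA12A in the control, whose peak lay 3011 bp from the nearest start. The peak covered a start itself at 9 of these genes in the control (56.2%; all genes 52.1%) and 10 in the knockdown (52.6%; all genes 50.7%), which is near the background. At DNAJB11, CCT5, DNAJC3, HSP90B1, HSPA2, CCT3 and TCP1 every peak lay wholly upstream of the nearest start, as did the nearer DNAJC14 peak and the HSPA12A knockdown peak. At CCT5 and HSPA2 that start is an inner one. The HSPA2 peak and the CCT5 knockdown peak lay inside the gene, and the CCT5 control peak covered its outer end.

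**Figure D3:**
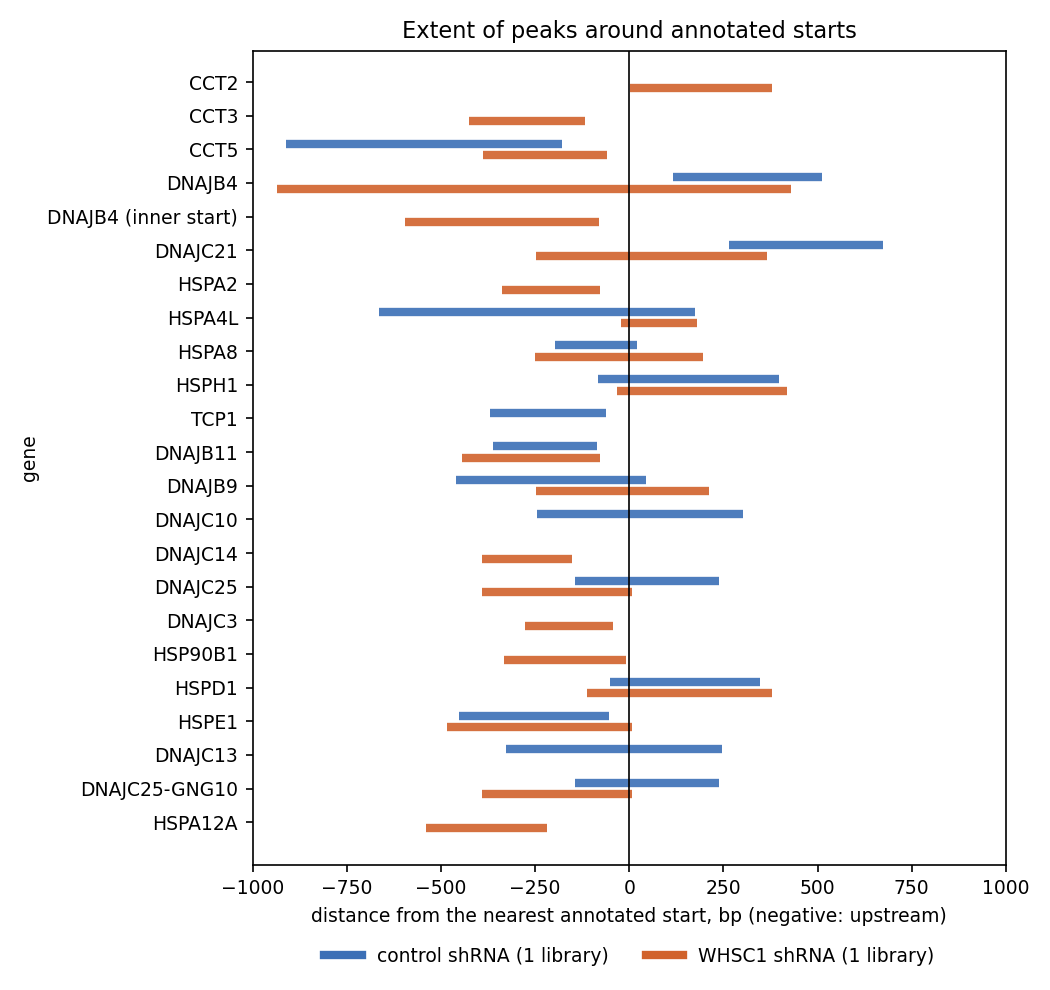
Extent of each peak (bars) relative to the nearest annotated start (x axis, bp, upstream negative) for each chaperone gene (y axis) with a peak within 500 bp of a start, in the control shRNA and WHSC1 shRNA libraries. Bars of both libraries lie over or beside the start, and at DNAJB11, CCT5, DNAJC3, HSP90B1, HSPA2, CCT3 and TCP1 they lie upstream of it. Of these, CCT5 and HSPA2 are drawn from an inner start.

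Heat shock element cores stood at genes with and without a peak. At least 1 core was found in the windows of 26 of the 76 matched genes. Of these 26, 6 had a peak in either library, beside 16 of the 50 without a core and 12.0% of all protein-coding genes. The 6 are CCT2, DNAJB4, HSPA4L, HSPA8, HSPD1 and TCP1. DNAJA1, DNAJB1, HSP90AA1, HSP90AB1, HSPA1A, HSPA6 and HSPB1 hold a core and had no peak. GAANNTTC stood in 4 of 26 windows under a peak (15.4%), in 16 of 73 others (21.9%) and in 6.77% of all windows of the table, and TTCNNGAA in 15.4%, 15.1% and 7.74%. In the 1682 windows of coding genes under a peak the shares were 4.52% and 6.72%. The forms are each their own reverse complement and can overlap. The CCAAT box stood in 42.3% of the chaperone windows under a peak and 37.0% of the others, against 34.6% of all windows and 47.7% of the 1682 coding windows under a peak. TATAAA was in none of the 26 windows under a peak and in 12 of the 73 others (16.4%), beside 4.04% of the 1682 coding windows under a peak and 11.5% of all windows. Both strands were searched. Windows of genes that share a start hold the same letters. A window counted as under a peak where a peak overlapped part of it. A match in such a window can therefore lie outside the peak, as CCAAT boxes of CCT3 and DNAJB11 do. A match is a match of letters only.

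Peaks of the group often lay at more than 1 coding gene. This held for 9 of 15 control peaks (60.0%) against 19.8% of all peaks at protein-coding genes, and for 9 of 21 knockdown peaks (42.9%) against 19.9%. With read-through genes left out it was 8 of 15 and 8 of 21, against 257 of 1351 and 315 of 1637 peaks. A peak at several genes has more chances to be picked through a list of genes. The shares over all peaks are therefore not what peaks picked through their genes would show. A peak between 2 starts cannot be given to either gene. When peaks shared with another coding gene were left out, 6 of 17 chaperone genes in the control and 12 of 21 in the knockdown kept a peak. Over all protein-coding genes the share with a peak then went from 7.64% to 5.06% in the control and from 9.26% to 6.12% in the knockdown. HSPA8, HSPH1, HSPA4L, HSPA12A and DNAJC21 had such a peak of their own in both libraries.

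The 15 distinct control peaks of the group had a median fold of 3.75 (range 3.14 to 4.74), beside 3.59 for all 1351 control peaks at coding genes. The 21 knockdown peaks had a median of 3.42 (range 2.90 to 4.74), beside 3.46 for all 1637. A peak of the other list overlapped 11 of the 15 control peaks (73.3%, interval 44.9 to 92.2%; all peaks at coding genes 58.0%) and 11 of the 21 knockdown peaks (52.4%, interval 29.8 to 74.3%; all 47.8%). In the 11 overlapping pairs the control fold was the higher in 7 and the knockdown fold in 4, without scaling between libraries. Over all 783 pairs at coding genes the control fold was the higher in 57.2%. By −log10 q the control was the higher in 6 of the 11 pairs and the knockdown in 5. Over all 783 pairs the control was the higher by −log10 q in 337 and the knockdown in 446. Peaks with no overlap in the other list had lower q-value medians. For the 4 such control peaks the median −log10 q was 1.65, beside 3.03 for the 11 that overlapped, and for the 10 such knockdown peaks it was 1.86, beside 2.40. Over all peaks at coding genes the medians were 1.67 and 2.597 for control peaks and 1.83 and 2.85 for knockdown peaks.

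Peaks were rarest among genes with the most coding neighbours, both inside the group and over all genes. Between genes with 0 to 8 and genes with 9 to 18 neighbours, the share changed less inside the group than over all genes. With 0 to 8 coding neighbours within 500 kb, 9 of 30 chaperone genes had a control peak (all genes 14.6%) and 10 a knockdown peak (33.3%; all 17.1%). With 9 to 18 neighbours it was 8 of 32 (25.0%; all 5.62%) and 9 of 32 (28.1%; all 7.22%). With 19 to 75 neighbours it was 0 of 22 (all 1.48%) and 2 of 22 (9.09%; all 2.17%), namely CCT3 and DNAJC14. The genes with the most neighbours included HSPA1A, HSPA1B and HSPA1L with 61 each, HSPBP1 with 51 and HSPB6 with 50. The other small heat shock protein genes ranged widely: HSPB3 had 2, HSPB8 4, HSPB1 14, HSPB2 21, HSPB7 22 and HSPB9 34. The part of local density in the missing calls at HSPA1A, DNAJB1 and the small heat shock proteins was not tested.

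**Figure D4:**
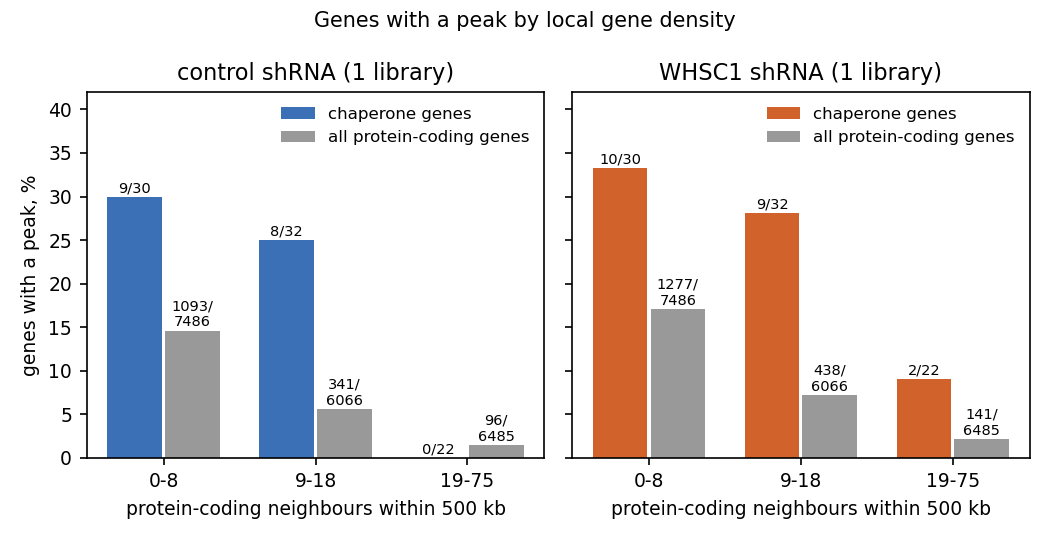
Percentage of genes with a peak (y axis) by the number of protein-coding neighbours within 500 kb (x axis), for the chaperone genes (coloured bars) and all protein-coding genes (grey bars) in each library, with counts above the bars. Both sets fall from left to right, and the chaperone bars reach 33.3% in the knockdown for genes with the fewest neighbours.

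The wider chaperone machinery was described with a list of 56 further genes, of which 5 were called in the control (background 7.64%) and 7 in the knockdown (background 9.26%). CDC37L1, SUGT1 and TOMM70, which work with HSP90 or receive its clients, and PDIA4, a disulfide isomerase of the endoplasmic reticulum, had one in both (background 4.95%). The CDC37L1 peaks of the control and the knockdown did not overlap. PDIA4 had a control peak of 3.40-fold and a knockdown peak of 3.34-fold, and SUGT1 had 3.93-fold and 3.51-fold. BBS12, a chaperonin-like protein, had one in the control only (3.67-fold). MKKS, another chaperonin-like protein, PDCL3, a CCT co-factor, and STIP1, which joins HSP70 to HSP90, had one in the knockdown only, of 3.62-fold, 3.26-fold and 2.90-fold. HSF1, the main heat shock factor, and the prefoldin, BAG and calnexin genes of the list had none in either library.

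Finally, DNAJC5B, a relative of the vesicle protein CSP, had a 3.23-fold knockdown peak (−log10 q 1.84) inside the gene and no control peak. Its peak and those of CCT2, CCT3 and HSPA2 were weak calls. Of the 10 genes called in a single library, TCP1, DNAJC3, HSP90B1 and DNAJC14 passed a −log10 q of 2, DNAJC14 only through the peak 2997 bp away, and none passed 5.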

How the data were processed

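Each group is 1 ATAC-seq library, taken from the condition label (control shRNA, WHSC1 shRNA), and its deposited list of broad peaks on GRCh38 (2010 control and 2418 knockdown peaks). The tools listed, per the submitters' processing notes, are MACS2, ChIPseeker 1.22.1, Picard 1.101, SAMtools 1.9, Bowtie2 2.2.9 and CASAVA 1.8.2; what each did, and with which options, is not given in the sources used here. The authors deposited for each peak a fold, a ratio over local background in the same library, a −log10 p and −log10 q, and a score, which was not used. The lists hold no read counts, so depth is unknown and intervals cover the counting of genes or peaks only.

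Gene positions came from RefSeq (GRCh38.p14) and starts from its promoter windows (250 bases before to 50 after a start). A peak overlaps another from 1 bp. Coordinates are 1-based. The members and lists were chosen with earlier results of these data known; every member with a peak is named, with 6 well-known members whether or not they had one. Compartments came from textbook knowledge. Peak assignment was tested on simulated data. Alternatives were stricter q limits, lists of equal length, other distances and overlaps, and peaks at another coding gene left out. Software was scipy 1.17.1, pandas 2.3.3, numpy 2.4.6 and matplotlib 3.10.9 on Python 3.11.15.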

Additional observations from a re-analysis of the deposited data

Results flagged for a closer look

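The rule for the chaperone genes leaves out their pseudogenes, and 1 of 141 such pseudogenes (0.709%) had a peak in the knockdown and 0 in the control. No share over all pseudogenes was at hand, so whether this count is unusual cannot be said. The pseudogene was CCT6P1, a copy of CCT6A on the same chromosome, with a 3.66-fold knockdown peak (chromosome 7, 65750889 to 65751097, −log10 q 2.69) and no overlapping control peak. It drew attention as a call outside the genes compared, in the knockdown list only; the lists give no control value there. For comparison, CCT6A had a control peak of 4.61-fold and a knockdown peak of 3.58-fold.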

How the results depend on the processing

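No paired analysis was possible because each group is 1 library. The counts of chaperone genes with a peak (17 control, 21 knockdown, 14 both, 3 control only, 7 knockdown only) stayed within 1.5 times with lists of equal length, a distance of 1 kb, and gene ends only. With a −log10 q of at least 5 they were 3, 3, 2, 1 and 1: DNAJB9 in the control only, HSPH1 in the knockdown only, HSPD1 and HSPE1 in both (backgrounds 0.579%, 0.739%, 0.294%, 0.284% and 0.444%). With a −log10 q of at least 2 the knockdown had 12 (background 5.63%), both 9 (2.86%) and the knockdown only 3 (2.77%). Without peaks shared with another coding gene the control had 6 (5.06%), the knockdown 12 (6.12%), both 5 (3.19%) and the control only 1 (1.87%). An overlap of 50% of both peaks left 5 shared peaks in each list, in place of 11. Fewer peaks enter under the q limits and without shared peaks. Read depth and spread between replicates are unknown.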
